A study of Mus musculus with 147 samples.

Results

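The libraries described here are peritoneal macrophages of mice kept on a high-fat diet (4 libraries) or on a normal diet (5 libraries), 9 of the 147 RNA-seq libraries of a mouse study of macrophages under metabolic challenge. They were taken by the tissue and diet in the sample labels, and no measured value entered the choice. The normal diet was chow, and the high-fat diet lasted 8 weeks with no other treatment. Each library was made by Smart-seq2, a full-length cDNA method for small samples, from the polyA RNA of 100000 cells purified by FACS. Every library carries a cohort number: cohorts 1, 2, 4 and 5 gave 1 library of each diet, and cohort 3 entered with a normal diet library alone. A further 5 peritoneal libraries came from mice on the high-fat diet for 8 weeks that also received streptozotocin (STZ), a toxin of the insulin-producing beta cells, at week 4. They entered the model with their own mean, so they bear on its spread, its cohort terms and, through these, the fitted diet differences. Cohort 3 has no high-fat diet library, so its normal diet library enters those differences only through the STZ library of that cohort. The levels of the STZ libraries are given beside the others without a test. The labels do not state strain, sex, age, the composition of the diets or how many mice stand behind a library, so p-values measure the spread between these libraries, which may be technical in part. In sorted bulk samples, fewer cells of a type and less RNA per cell cannot be told apart.

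The peritoneal cavity holds resident macrophages that maintain themselves locally, bind and clear material from the peritoneal fluid and depend on the transcription factor Gata6. Gata6 in turn depends on retinoic acid, the active form of vitamin A, which acts through retinoic acid receptors bound to DNA at direct repeats of a short half-site. Cells that sense retinoic acid commonly switch on Cyp26a1, an enzyme that oxidises and removes it, so Cyp26a1 is widely read as a gene downstream of the receptors. Obesity is best known for macrophages that accumulate in adipose tissue, and how far a high-fat diet reaches the free macrophages of the peritoneum is the question this comparison addresses.

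The sequences of 3 promoters are shown because the results below turn on genes they belong to: Cyp26a1, Rarb (retinoic acid receptor beta, which carries the same kind of direct repeat) and Per1, a core gene of the circadian clock. Each runs from 250 bases before to 50 bases after a RefSeq start of transcription, 5′ to 3′ on the strand of the gene, in build GRCm38 (mm10). Capitals mark the direct repeat of retinoic acid receptor half-sites with a spacer of 5 bases in the first pair, searched on both strands, and the clock motif CACGTG in the last. The windows lie at chr19:37697558-37697857 (plus strand) for Cyp26a1, chr14:16575427-16575726 (minus strand) for Rarb and chr11:69098699-69098998 (plus strand) for Per1. The Per1 window was kept because it holds the motif, and any Per1 window without it was left out. It lies inside the gene, which begins at chr11:69095217 in GENCODE M21.
Cyp26a1: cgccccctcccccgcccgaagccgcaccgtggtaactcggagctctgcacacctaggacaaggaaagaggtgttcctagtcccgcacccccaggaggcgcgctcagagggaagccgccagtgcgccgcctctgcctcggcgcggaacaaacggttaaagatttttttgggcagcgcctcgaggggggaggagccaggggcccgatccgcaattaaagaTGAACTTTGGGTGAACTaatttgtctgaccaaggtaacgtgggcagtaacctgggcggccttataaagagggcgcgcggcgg
Rarb: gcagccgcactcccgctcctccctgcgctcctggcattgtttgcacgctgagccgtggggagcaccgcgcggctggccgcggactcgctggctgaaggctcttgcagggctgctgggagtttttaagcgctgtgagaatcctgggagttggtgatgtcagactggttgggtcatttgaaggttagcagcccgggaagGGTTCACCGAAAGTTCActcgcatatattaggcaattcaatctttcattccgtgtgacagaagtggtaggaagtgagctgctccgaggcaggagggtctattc
Per1: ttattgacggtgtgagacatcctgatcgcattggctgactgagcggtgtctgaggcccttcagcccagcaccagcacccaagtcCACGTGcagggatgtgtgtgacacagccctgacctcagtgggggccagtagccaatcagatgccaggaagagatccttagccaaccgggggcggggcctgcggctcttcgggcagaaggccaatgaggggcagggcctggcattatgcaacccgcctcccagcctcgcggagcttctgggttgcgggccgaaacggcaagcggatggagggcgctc
In Cyp26a1 the repeat lies 32 to 16 bases before the start, and the match is on the strand opposite to the gene. In Rarb it lies 53 to 37 bases before the start, with the match on the strand of the gene. This repeat was found in 32 of 32851 mouse promoter windows of the same length (0.0974%), those of 31 of 27025 genes. Of the 17 lead genes, defined below, that have a window in the table, 1 held it, Cyp26a1. CACGTG was found in 2349 windows (7.15%), those of 2187 genes, and in the windows of 2 lead genes, Per1 and Fkbp5. Both motifs were chosen for the genes shown, so these counts do not test enrichment among the lead genes. A match describes these letters and shows no binding.

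The cells carried the markers of resident peritoneal macrophages. Levels are given as CPM, the count relative to library size, after scaling with edgeR's TMM method. Prg4, which encodes lubricin, lay between 6575 and 10504 CPM in the normal diet libraries and between 8436 and 10048 CPM in the high-fat diet libraries, a log2 difference of -0.06 ± 0.23 (SE). Gata6 was at 27.7, 29.2, 36.7, 30.0 and 31.1 CPM in the normal diet libraries of cohorts 1 to 5 and at 18.4, 24.5, 25.6 and 24.6 CPM in the high-fat diet libraries of cohorts 1, 2, 4 and 5. The groups did not overlap for Gata6, but the fitted log2 difference of -0.45 ± 0.32 (SE) did not pass the test (edgeR's quasi-likelihood test, adjusted p = 0.989, unadjusted p = 0.182). Of the 25 tested genes of a list of large peritoneal macrophage identity, 8 were higher and 17 lower with the high-fat diet, with a median log2 difference of -0.15, and none passed even an unadjusted p of 0.05. Markers of other cells ranged widely. The 12 mesothelial and fibroblast markers summed to at most 2.26 CPM in any of the 9 libraries, with Col1a1, Col3a1 and Lum at 0. The 10 adipocyte markers summed to 317 to 674 CPM on the normal diet and 340 to 394 CPM on the high-fat diet, nearly all of it Fabp4, which macrophages also express, while Adipoq, Cidec, Lep and Pck1 were at 0. Dendritic cell markers summed to 1483 to 4094 and 1477 to 2057 CPM, and mast cell markers to 134 to 220 and 115 to 223 CPM. Eosinophil markers summed to 580 to 745 and 569 to 724 CPM. Nearly all of that was the single gene Alox5 (572 to 742 and 566 to 720 CPM), while Prg2, Ear1 and Ear6 were at 0. Neutrophil markers summed to 108 to 303 and 243 to 264 CPM with Ly6g and Stfa1 at 0, and T and NK cell markers to at most 26.8 CPM. The part of these cells in the differences below was not tested.

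Depth ran from 14.1 M to 19.0 M counts in the 9 libraries and no difference between the diets was detected (exact two-sided permutation test, p = 0.960, smallest possible p = 0.0159). One normal diet library, that of cohort 3, stood apart from the other 13. Its TMM factor was 0.706 against 0.960 to 1.12 in the others, 16408 genes were detected in it against 17353 to 18311, and it lay alone on the first principal component. Over genes, the median SD of log2(CPM + 1) was 0.458 among the 5 normal diet libraries, 0.256 without that library and 0.221 among the 4 high-fat diet libraries. The counts below are therefore given with and without it, a choice made after the data were seen.

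**Figure D1:**
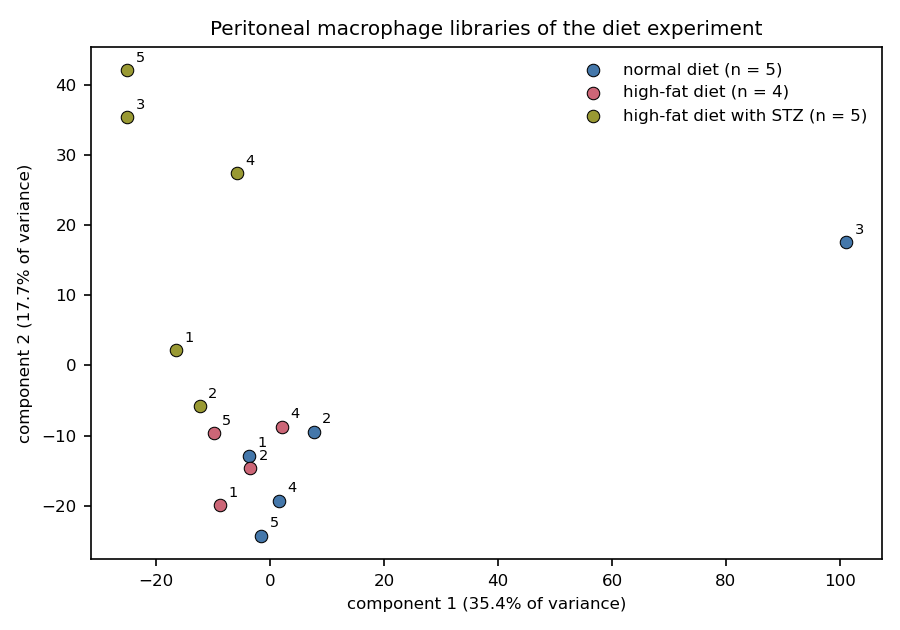
Principal components of the 14 peritoneal macrophage libraries, from log2(CPM + 1): each point is a library, the number beside it is its cohort, and the colour is its diet. The cohort 3 normal diet library lies at 101 on component 1, while the others lie between -25.1 and 7.65.

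With all libraries, 0 of 13225 tested genes (0%) differed between the diets at an adjusted p below 0.05 in edgeR's quasi-likelihood test, with the cohort in the model. At an unadjusted p below 0.05, 222 genes (1.68%) were higher and 246 (1.86%) lower with the high-fat diet, 468 (3.54%) in all. In 127 genes (0.96%) every high-fat diet library lay above every normal diet library, and in 148 (1.12%) every one lay below. Other tools called more on the same libraries: DESeq2 called 24 genes (11 higher, 13 lower) and limma-voom with quality weights 8 (1 higher, 7 lower), and edgeR called 22 with no filter on low counts. Without the cohort 3 normal diet library, edgeR called 2 of 13193 genes (0.0152%), Lipn higher and Clec5a lower, and 896 genes (6.79%) had an unadjusted p below 0.05. Leaving out the normal diet library of cohort 4 or that of cohort 5, or the high-fat diet library of cohort 5, gave 1 call each.

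The genes described below are the 10 of smallest p in each direction among those with at least 5 CPM in a group, called the lead genes here, and the members of gene lists. None of them passed the adjusted threshold in edgeR's test with all libraries, while of 99 named genes DESeq2 called 14, edgeR with no filter 14 and voom 6 on the same libraries. Their values are given as levels and fitted differences, and their order is a description. For the genes described most closely, the range of the adjusted p over 20 alternative fits follows it. Those fits share libraries, so the number of them below the threshold is not a count of independent tests. Some were chosen after the data were seen, and all of those leave out the normal diet library that stood apart.

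Cyp26a1 (ENSMUSG00000024987.5, chr19:37697798-37701536, plus strand) stood first in the whole table. It was at 5.21, 9.40, 34.5, 8.40 and 12.0 CPM in the normal diet libraries of cohorts 1 to 5, and at 0.135, 0.247, 0 and 2.08 CPM in the high-fat diet libraries of cohorts 1, 2, 4 and 5. Every high-fat diet library was thus below every normal diet library, and 3 of the 4 held 4 counts or fewer. The count of 0 in cohort 4 allows up to 0.181 CPM (3 counts, counting error only). The mean was 13.9 ± 11.8 CPM (SD, n = 5) on the normal diet and 0.615 ± 0.981 CPM (SD, n = 4) on the high-fat diet, a log2 difference of -4.65 ± 0.65 (SE) with an adjusted p of 0.0947 in edgeR's quasi-likelihood test. Over the 20 alternatives the log2 difference ranged from -5.97 to -3.82 and the adjusted p from 9.2e-09 to 1.00, and it was below 0.05 in 6 of them. In the STZ libraries Cyp26a1 was at 0 CPM in cohorts 1 to 4 and at 0.109 CPM in cohort 5.

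The other retinoid genes lay on both sides of 0. Of 10 tested members of a retinoid list, which does not hold Cyp26a1, 7 were higher and 3 lower, and 1 in each direction had an unadjusted p below 0.05. Aldh1a2, an enzyme that makes retinoic acid from retinaldehyde, was at 43.3, 47.3, 50.8, 61.3 and 40.5 CPM on the normal diet and at 29.0, 27.9, 24.0 and 35.1 CPM on the high-fat diet. The groups did not overlap (log2 difference -0.76 ± 0.27 (SE), unadjusted p = 0.0152, adjusted p = 0.989), and the STZ libraries lay between 7.70 and 27.3 CPM. Rara, the alpha receptor, was at 47.1 to 107 CPM on the normal diet and 82.7 to 108 CPM on the high-fat diet, a log2 difference of 0.50 ± 0.19 (SE, unadjusted p = 0.0190). Rarb, whose promoter carries the repeat shown above, was at 39.5 ± 19.5 CPM (SD, n = 5) and 44.6 ± 8.92 CPM (SD, n = 4), and its log2 difference of 0.06 ± 0.26 (SE) was within the spread. Rarb was picked for its promoter after its values were seen.

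Genes of the clock and of the glucocorticoid response stood among those higher on the high-fat diet. Fkbp5, a co-chaperone of the glucocorticoid receptor and one of its best known targets, was at 2.10, 1.24, 2.01, 1.02 and 1.90 CPM on the normal diet of cohorts 1 to 5 and at 3.70, 20.7, 6.28 and 6.95 CPM on the high-fat diet of cohorts 1, 2, 4 and 5. No library of the groups overlapped, while the cohort 2 high-fat diet library was well above the other 3. The log2 difference was 2.26 ± 0.50 (SE, adjusted p = 0.580 by edgeR, 0.00214 to 1.00 over the alternatives), and leaving out each library in turn gave 1.76 to 2.73. Per1, both a clock gene and a glucocorticoid target, was at 27.4, 25.5, 22.1, 77.3 and 37.2 CPM and at 99.6, 51.8, 98.0 and 72.5 CPM. Its groups overlapped through the cohort 4 normal diet library, with a log2 difference of 1.14 ± 0.26 (SE, adjusted p = 0.584 by edgeR, 0.000735 to 1.00 over the alternatives). In the STZ libraries Per1 lay between 109 and 182 CPM and Fkbp5 between 4.17 and 17.7 CPM.

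Of the 16 tested clock genes, 12 were higher and 4 lower, with a median log2 difference of 0.26 against -0.01 over all genes, of which 48.1% were higher. Per1 and Nr1d1 had an unadjusted p below 0.05 on the higher side and Rora on the lower. Nr1d1, a nuclear receptor that represses Arntl, was at 22.9 to 46.0 CPM on the normal diet and at 95.9, 29.0, 39.7 and 86.1 CPM on the high-fat diet of cohorts 1, 2, 4 and 5, and it was thus lower than its own control in cohort 2 (46.0 CPM). Without the cohort 3 normal diet library the clock median was 0.15, with 11 of 16 genes higher. The labels do not state the hour at which the tissue was taken, and its part in the result was not tested. Of 15 tested glucocorticoid targets, 9 were higher and 6 lower, with a median of 0.06. Besides Per1 and Fkbp5, Tsc22d3 (log2 difference 0.57 ± 0.19 (SE), unadjusted p = 0.0104) and Sgk1 (-0.46 ± 0.19 (SE), unadjusted p = 0.0276) passed the unadjusted threshold in opposite directions. Tsc22d3, Sgk1 and Rora were named after their values were seen.

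Among genes of matrix and adhesion, Tns1 and Vcan were higher in every high-fat diet library than in any normal diet library. Tns1 (ENSMUSG00000055322.15, chr1:73910231-74124449, minus strand) encodes tensin 1, which links integrins to actin. It was at 10.3, 18.6, 11.9, 15.9 and 22.4 CPM on the normal diet and at 39.3, 45.2, 44.8 and 34.0 CPM on the high-fat diet, a log2 difference of 1.46 ± 0.27 (SE, adjusted p = 0.545 by edgeR, 4.5e-06 to 1.00 over the alternatives). The STZ libraries held 39.4, 84.5, 121, 107 and 141 CPM in cohorts 1 to 5, above every high-fat diet library in cohorts 2 to 5. Vcan, the proteoglycan versican, was at 22.2, 8.85, 8.43, 16.3 and 16.6 CPM and at 39.5, 38.7, 33.7 and 35 CPM, with a log2 difference of 1.37 ± 0.28 (SE, adjusted p = 0.545 by edgeR, 5.9e-05 to 1.00 over the alternatives). Col18a1, a basement membrane collagen, went the other way, with 12.3, 26.3, 3.26, 48.9 and 10.3 CPM against 4.85, 3.58, 3.38 and 4.48 CPM. It overlapped through the cohort 3 library alone (log2 difference -2.39 ± 0.46 (SE), adjusted p = 0.545 by edgeR, 3.5e-05 to 1.00 over the alternatives), and the STZ libraries lay between 0.301 and 1.75 CPM. The integrin subunit Itgb3 was at 7.09 to 24.8 CPM on the normal diet and 32.4 to 38.7 CPM on the high-fat diet, and the secreted matrix protein Tgfbi at 511 to 772 and 777 to 984 CPM, with log2 differences of 1.02 ± 0.42 and 0.42 ± 0.17 (SE) and unadjusted p of 0.0300 and 0.0315. Neither overlapped between the diets. Of the 13 tested genes of the TGF-beta and matrix list, 8 were higher with a median of 0.09.

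Lipid genes were led by Lipn (ENSMUSG00000024770.14, chr19:34067358-34084918, plus strand), a lipase of the lysosomal acid lipase family. It was at 16.4, 14.8, 28.3, 17.9 and 17 CPM on the normal diet of cohorts 1 to 5 and at 48.0, 31.0, 37.1 and 35.1 CPM on the high-fat diet of cohorts 1, 2, 4 and 5, and the groups did not overlap. The log2 difference was 1.06 ± 0.21 (SE, adjusted p = 0.545 by edgeR). Without the cohort 3 normal diet library it was 1.19 and called higher (adjusted p = 0.0111). The adjusted p was below 0.05 in 9 of the 20 alternatives (4.7e-12 to 1.00). Some of the 20 leave out that library, which held the highest normal diet level of Lipn, and most of those were chosen after the data were seen. The STZ libraries held 19.3 to 26.5 CPM, below each high-fat diet library. Plpp1, a phosphatase that removes phosphate from lysophosphatidic and phosphatidic acid, was at 8.37 to 11.3 CPM in 4 normal diet libraries, 24.5 CPM in that of cohort 3 and 19.0 to 30.1 CPM on the high-fat diet (log2 difference 1.05 ± 0.25 (SE), adjusted p = 0.691 by edgeR, 0.000345 to 1.00 over the alternatives).

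Lists of fatty acid oxidation, lipid uptake and lipid-associated macrophages leaned lower in the fit. Over all genes, 48.1% were higher with a median of -0.01. Of 27 tested genes of fatty acid oxidation and PPAR targets 7 were higher, with a median log2 difference of -0.14 that was -0.05 without the cohort 3 library. Within cohorts 1, 2, 4 and 5, 10, 5, 17 and 17 of these 27 genes were higher. Of 20 genes of lipid uptake and droplets 8 were higher, with a median of -0.17 that was -0.13 without the cohort 3 library. In the same cohorts 10, 9, 8 and 7 of these 20 were higher. Angptl4, a secreted inhibitor of lipoprotein lipase, was the one oxidation and PPAR gene with an unadjusted p below 0.05 (log2 difference -1.26 ± 0.55 (SE)), at 2.46 to 16.3 CPM on the normal diet and 1.23 to 2.90 CPM on the high-fat diet. Of 14 genes that mark lipid-associated macrophages in obese fat, 4 were higher and 10 lower, with a median of -0.21 that was -0.07 without the cohort 3 library. Within cohorts 1, 2, 4 and 5, 7, 5, 8 and 7 of the 14 were higher. The median differences of log2(CPM + 1) there were 0.01, -0.22, 0.07 and 0.01. Cd9, a tetraspanin of that list, was at 739, 1268, 2305, 1133 and 838 CPM on the normal diet and at 531, 604, 648 and 645 CPM on the high-fat diet, with no overlap (log2 difference -0.90 ± 0.35 (SE), unadjusted p = 0.0245). Apoe, the lipoprotein of cholesterol efflux, was at 5447 to 21294 CPM on the normal diet and 6518 to 8356 CPM on the high-fat diet (-0.75 ± 0.34 (SE), unadjusted p = 0.0442).

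Of 14 tested LXR targets and efflux genes, 9 were higher, with a median of 0.28 that was 0.16 without the cohort 3 library. Its members with an unadjusted p below 0.05 were Nr1h3 and Mylip on the higher side and Apoe, given above, on the lower. The list summed to 7254 to 25241 CPM on the normal diet and 8791 to 11140 CPM on the high-fat diet. Nr1h3, the gene of LXR alpha, was at 3.22 to 6.23 CPM on the normal diet and at 7.61, 9.37, 3.62 and 7.66 CPM on the high-fat diet, so only the cohort 4 library lay within the normal range (log2 difference 0.82 ± 0.27 (SE), unadjusted p = 0.0106). Mylip, which marks the LDL receptor for degradation, was at 17.1 to 50.1 and 43.7 to 53.5 CPM (0.67 ± 0.27 (SE), unadjusted p = 0.0280). Genes of cholesterol synthesis and uptake differed in direction between cohorts. Over all libraries 17 of 23 were higher with a median of 0.21, but on log2(CPM + 1) within cohorts the median was 0.28 in cohort 1 (19 higher), 0.87 in cohort 2 (22 higher), -0.38 in cohort 4 (3 higher) and 0.03 in cohort 5 (15 higher). Without the cohort 2 normal diet library the fitted median was -0.03.

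Genes of alternative activation were not lower as a list, but Arg1 and Ccl24, its members with an unadjusted p below 0.05, were. Arg1, the arginase that marks macrophages exposed to interleukin 4 and related signals, was at 905, 1009, 896, 617 and 316 CPM on the normal diet of cohorts 1 to 5 and at 199, 193, 156 and 226 CPM on the high-fat diet of cohorts 1, 2, 4 and 5. The groups did not overlap, and the 4 high-fat diet libraries lay close together. The log2 difference was -1.95 ± 0.45 (SE, adjusted p = 0.679 by edgeR, 0.0844 to 1.00 over the alternatives). The STZ libraries spread from 167 to 839 CPM. Ccl24, an eosinophil chemoattractant, was at 224, 525, 791, 447 and 296 CPM and at 180, 193, 211 and 186 CPM, again with no overlap (log2 difference -1.02 ± 0.25 (SE), adjusted p = 0.694 by edgeR, 0.0016 to 1.00 over the alternatives). Of the 15 tested genes of the list 8 were higher, and Retnla and Mrc1, chosen after their values were seen as its best known members, had log2 differences of -0.06 ± 0.34 and 0.37 ± 0.48 (SE).

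**Figure D2:**
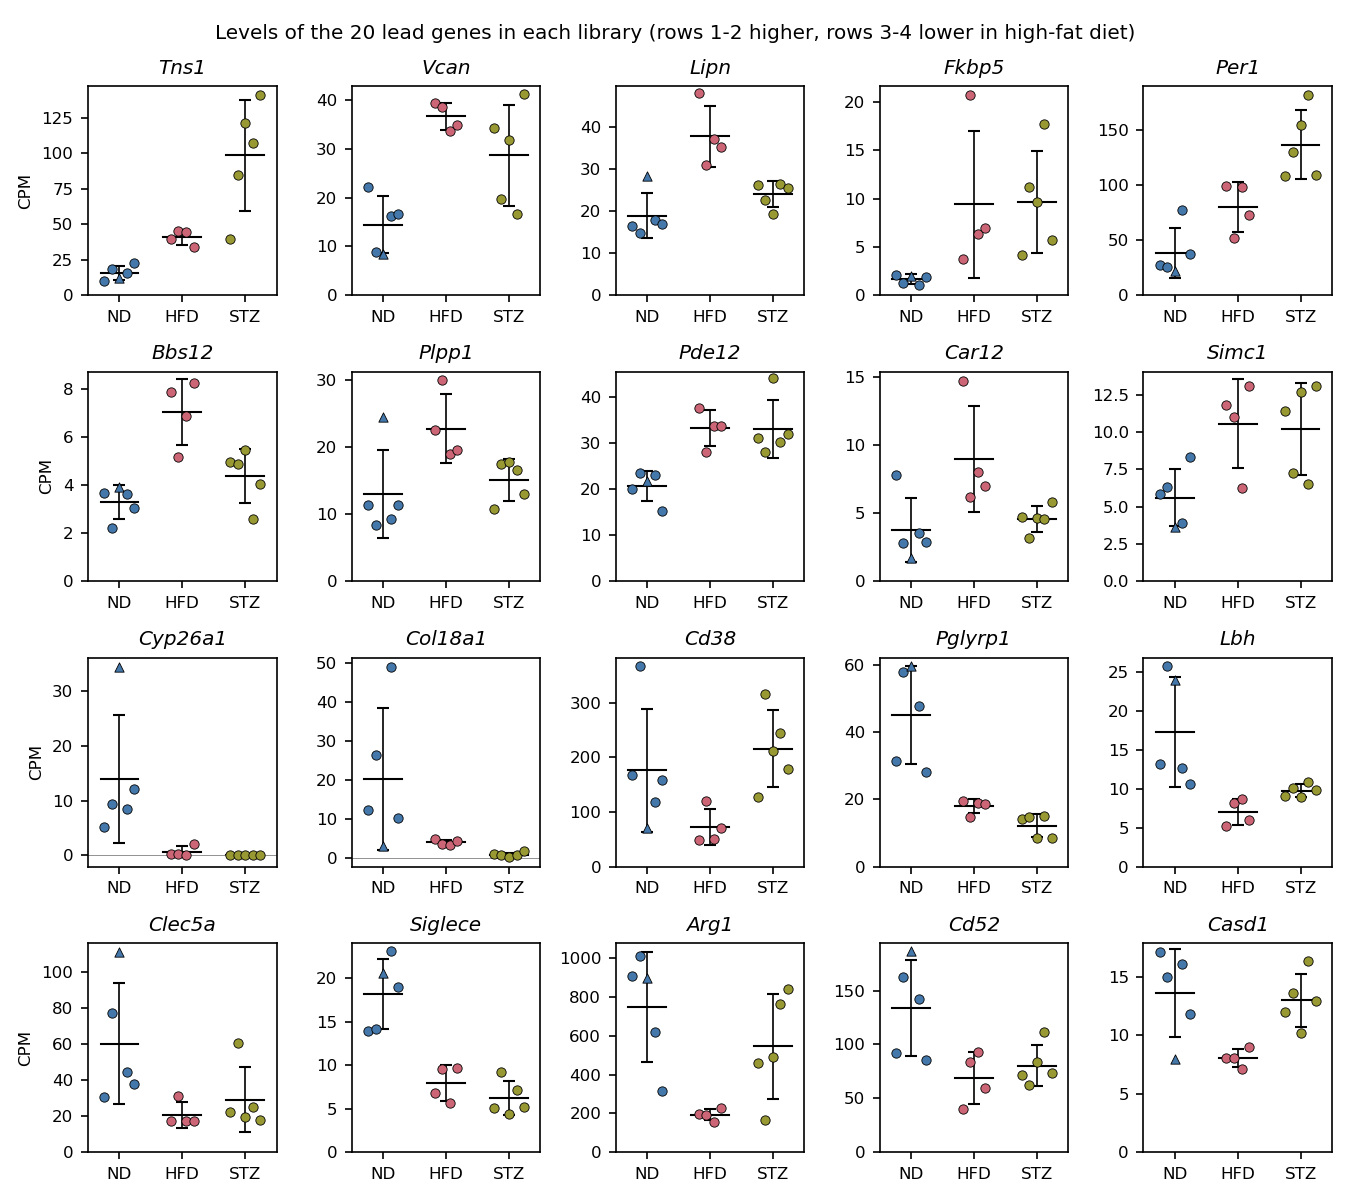
Levels (CPM) of the 20 lead genes in each peritoneal library on normal diet (ND, n = 5), high-fat diet (HFD, n = 4) and high-fat diet with STZ (STZ, n = 5). Points are libraries, the triangle is the cohort 3 normal diet library, and bars are means ± SD. Cyp26a1 is between 0 and 2.08 CPM on the high-fat diet and at least 5.21 CPM on the normal diet.

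Several surface receptors and innate defence genes were among the lead genes lower on the high-fat diet. Cd38, an ectoenzyme that consumes NAD, was at 168, 367, 70.0, 119 and 158 CPM on the normal diet and at 49.7, 120, 51.1 and 70.8 CPM on the high-fat diet. Each high-fat diet library was below that of its own cohort, although the groups overlapped (log2 difference -1.32 ± 0.27 (SE), adjusted p = 0.545 by edgeR, 2.4e-09 to 1.00 over the alternatives). The STZ libraries were not low, with 128 to 316 CPM. Clec5a (ENSMUSG00000029915.14, chr6:40574894-40585821, minus strand), a receptor that signals through DAP12, was at 30.6, 77.1, 111, 44.9 and 37.9 CPM and at 17.3, 31.5, 17.4 and 17.2 CPM. Its log2 difference was -1.34 ± 0.29 (SE, adjusted p = 0.580 by edgeR), and it was -1.15 and called lower without the cohort 3 normal diet library (adjusted p = 0.0436). The adjusted p was below 0.05 in 8 of the 20 alternatives (3.7e-08 to 1.00), which include the linked fits without that library.

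Pglyrp1, a secreted protein that binds bacterial peptidoglycan, was at 31.5, 57.7, 59.6, 47.7 and 28.1 CPM on the normal diet and at 19.4, 14.9, 18.8 and 18.6 CPM on the high-fat diet, with no overlap and STZ libraries between 8.52 and 15 CPM. Siglece, an inhibitory receptor for sialic acid, was at 14, 14.2, 20.6, 23.1 and 19.1 CPM and at 6.80, 9.62, 5.67 and 9.74 CPM, also with no overlap. Their log2 differences were -1.26 ± 0.27 and -1.23 ± 0.28 (SE), with adjusted p of 0.556 and 0.584 by edgeR. Casd1, the enzyme that acetylates sialic acids, was at 17.2, 15, 7.95, 16.1 and 11.8 CPM against 8.08, 8.08, 7.12 and 9.03 CPM (-0.84 ± 0.21 (SE), adjusted p = 0.691 by edgeR). Cd52, a small glycoprotein of the leukocyte surface, was at 85.4 to 186 and 40.0 to 93.0 CPM (-0.89 ± 0.22 (SE), adjusted p = 0.691 by edgeR), and Lbh, a transcription cofactor, at 10.6 to 25.8 and 5.25 to 8.63 CPM (-1.19 ± 0.26 (SE), adjusted p = 0.556 by edgeR). Cd14, the coreceptor for bacterial lipopolysaccharide, was at 281 to 966 and 222 to 296 CPM (-0.72 ± 0.24 (SE), unadjusted p = 0.00983).

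Some of these genes are also expressed by B cells, whose RNA differed between libraries. The 12 B cell markers summed to 34.4 to 871 CPM on the normal diet and 22.6 to 337 CPM on the high-fat diet, and the cohort 2 library was the highest in both groups, as it was for Cd38. Of 10 tested B cell markers, 0 were higher in the fit, with a median log2 difference of -0.63, and none had an unadjusted p below 0.05. Within cohorts 1, 2, 4 and 5, however, 4, 0, 1 and 6 of the 10 were higher. The median differences of log2(CPM + 1) there were -0.17, -1.36, -0.30 and 0.15. Without the cohort 2 normal diet library the log2 difference of Cd38 was -1.17 and that of Cd52 was -0.76. That fit still held the cohort 2 high-fat diet and STZ libraries, with B cell markers at 337 and 555 CPM, so it does not separate B cell RNA from diet. Hemoglobin genes were likewise highest in the cohort 2 library of each diet, Hba-a1 at 7.82 and 9.19 CPM against at most 1.05 CPM in the others. The part of B cell RNA in the differences of Cd38 and Cd52 was not tested.

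The remaining lead genes on the higher side were Bbs12, a chaperonin-like protein of cilia (3.29 ± 0.695 CPM (SD, n = 5) and 7.05 ± 1.37 CPM (SD, n = 4)), Pde12, a phosphodiesterase that degrades 2-5A (20.6 ± 3.34 and 33.2 ± 3.92 CPM), the carbonic anhydrase Car12 (3.75 ± 2.36 and 8.99 ± 3.92 CPM) and Simc1 (5.60 ± 1.92 and 10.6 ± 2.99 CPM). Bbs12 and Pde12 did not overlap between the diets, while Car12 and Simc1 did. Among the lead genes, exons of Bbs12, Pde12, Simc1, Plpp1 and Cd52 overlap those of another gene on the opposite strand, and reads of such a pair cannot be told apart without strand. Bbs12 and Pde12 each also overlap 1 gene on the same strand, where strand does not separate the reads. Exons of 28 of the 105 genes looked up in all overlap another gene, with Gata6, Prg4, Nr1d1, Nr1h3 (on the same strand), Irs2 and Cd9 among them. Colec12, a scavenger receptor, was higher in each high-fat diet library (28.1 to 58.7 CPM) than in any normal diet library (8.13 to 26.2 CPM), with a log2 difference of 1.19 ± 0.42 (SE, unadjusted p = 0.0141). Irs2, an adaptor of the insulin receptor, was lower in each (4.42 to 6.13 against 6.46 to 10.4 CPM; -0.66 ± 0.23 (SE), unadjusted p = 0.0138), and of the 15 tested genes of insulin signalling 5 were higher with a median of -0.04.

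The medians of the inflammatory lists did not all lie on the same side of 0. Of 28 NF-kB inflammatory genes 16 were higher, with a median log2 difference of 0.09, and Il6 was the single member with an unadjusted p below 0.05 (3.31 to 7.49 CPM on the normal diet, 1.85 to 3.70 CPM on the high-fat diet, -0.97 ± 0.43 (SE)). Of 13 inflammasome and interleukin-1 genes 5 were higher (median -0.16), of 17 chemokines and receptors 9 were higher (0.02), and of 20 toll-like receptors and adaptors 10 were higher (0.02). Of 18 MHC class II and antigen presentation genes 2 were higher, with a median of -0.21. Without the cohort 3 normal diet library 3 were higher and 15 lower, with a median of -0.18. Cohorts differed in direction, with 5, 1, 10 and 9 of the 18 higher in cohorts 1, 2, 4 and 5. The median differences of log2(CPM + 1) within them were -0.24, -0.60, 0.10 and 0.04. That list summed to 34997 CPM in the cohort 3 normal diet library, 12900 to 20175 CPM in the other 4 and 11805 to 17282 CPM on the high-fat diet.

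Interferon-stimulated genes lay on opposite sides of 0 between cohorts, each of which holds 1 library per diet. Over all libraries 9 of 37 were higher, with a median of -0.22. Within cohort 2 none of the 37 was higher and the median difference of log2(CPM + 1) was -1.72, while in cohorts 1, 4 and 5 the medians were 0.21, 0.23 and 0.34 with 28, 30 and 28 genes higher. The list summed to 6049 CPM in the cohort 2 normal diet library, 1290 to 1761 CPM in the other 4 and 1443 to 2047 CPM on the high-fat diet. Igtp, an interferon-induced GTPase, was at 196 CPM in the former and 22.8 to 59.2 CPM in the other normal diet libraries. Without the cohort 2 normal diet library the fitted median turned to 0.35.

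Cell cycle genes split by cohort as well. Their fitted median over 38 genes was -0.04, but within cohorts it was -0.61 in cohort 1 (1 gene higher), -0.26 in cohort 2 (6 higher), -0.03 in cohort 4 (18 higher) and 1.15 in cohort 5 (36 higher). The fitted differences of ribosomal protein genes were below 0 in all 54 (median -0.29), and those of 39 of 41 nuclear oxidative phosphorylation genes (median -0.21). Both lists were highest in the cohort 3 normal diet library: ribosomal protein genes summed to 36340 CPM there, 13710 to 22243 CPM in the other 4 normal diet libraries and 13924 to 19170 CPM on the high-fat diet. Without it the medians were -0.14 and -0.08, and within cohorts 33, 0, 47 and 2 of the 54 ribosomal genes were higher in cohorts 1, 2, 4 and 5.

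**Figure D3:**
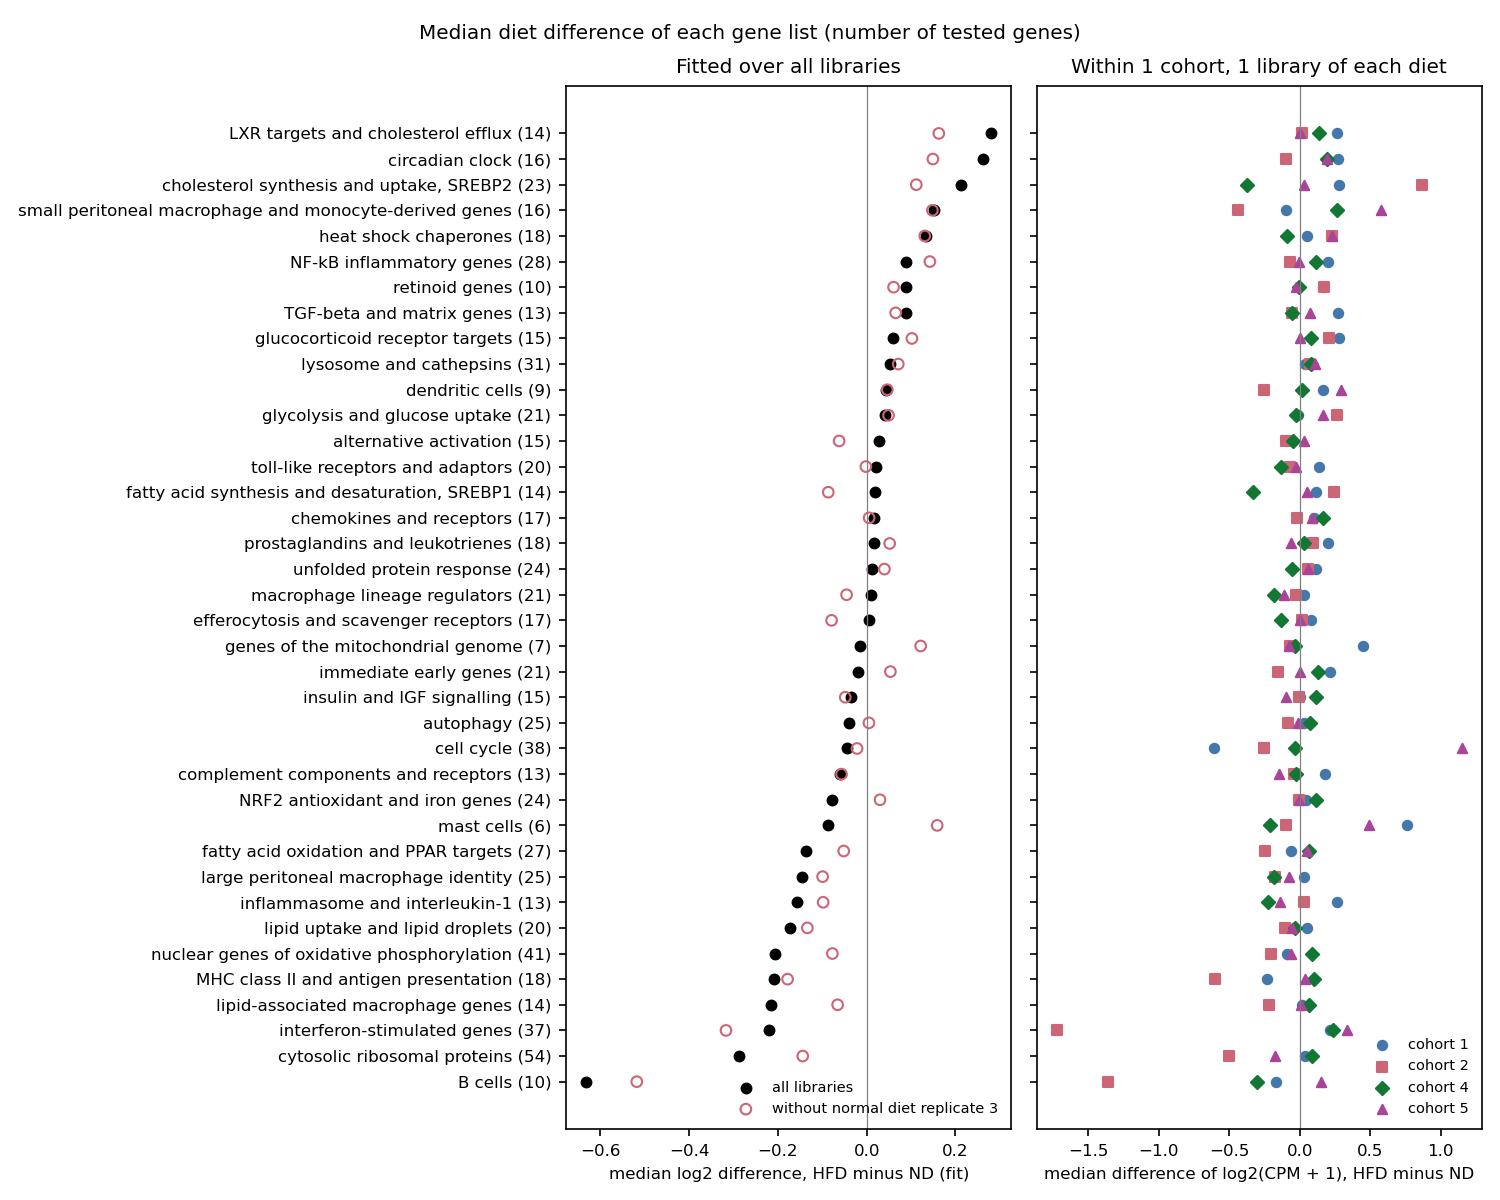
Median diet difference of the 38 gene lists with at least 5 tested genes. Left, the fitted log2 difference with all libraries (filled) and without the cohort 3 normal diet library (open). Right, the median difference of log2(CPM + 1) within each cohort with both diets. Interferon-stimulated genes lie at -1.72 in cohort 2 and between 0.21 and 0.34 in the others.

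The same diet was compared in islet macrophages and microglia, with 4 libraries of each diet in both, in a model of all 37 libraries of the diet experiment, whose scaling differs slightly from that above. The islet libraries started from 400 cells and the microglia libraries from 5000, against 100000 in the peritoneum, so population and starting cell number cannot be told apart. The diet effect of 70 of 17230 tested genes (0.406%) differed between peritoneal and islet macrophages, 5 higher and 65 lower in the peritoneum, at an adjusted p below 0.05. Of these, 65 had 0 counts in at least 1 of the 8 islet libraries and 39 had 0 counts in every islet library of 1 diet, and 5 had an unadjusted p below 0.05 in the peritoneal fit. The count was 46 and 45 without the peritoneal normal diet libraries of cohorts 1 and 4, and 42, 42, 34 and 40 without the high-fat diet libraries of cohorts 1, 2, 4 and 5. Lpar5, Mapk1ip1, Slc37a3 and Trim2, the 4 of smallest p with at least 5 CPM in a peritoneal group, were at 0 to 0.084 CPM in the islet normal diet libraries. Nr3c1, the glucocorticoid receptor, followed: it was at 80.9 to 101 CPM on the normal diet and 69.1 to 90.3 CPM on the high-fat diet in peritoneal macrophages, and at 19.6 to 54.0 and 64.6 to 110 CPM in islet macrophages. Its diet effect was lower by a log2 difference of -1.55 ± 0.25 (SE, adjusted p = 0.00727 by edgeR) in the peritoneum.

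Against microglia 1 gene (0.0058%) differed in its diet effect, Xdh, the xanthine dehydrogenase. It was at 96.7 to 538 CPM and 503 to 624 CPM in peritoneal macrophages, while in microglia all 4 normal diet libraries held 0 counts and the high-fat diet libraries 3.29 to 11.9 CPM. The count was 2 without the cohort 3 normal diet library and 0 without any one of the other 8 peritoneal libraries. For the 20 lead genes, 0 passed the test of a different diet effect against either population. Tns1 had a log2 difference of 1.47 ± 0.28 (SE) in peritoneal macrophages, 0.34 ± 0.29 in islet macrophages and -0.08 ± 0.28 in microglia in this model, with adjusted p of 0.334 and 0.580 for the differences by edgeR. Clec5a had -1.33 ± 0.30, 0.37 ± 0.30 and -0.36 ± 0.29 (SE), with adjusted p of 0.0947 against islet macrophages and 1.00 against microglia by edgeR. Arg1, Ccl24, Cyp26a1, Col18a1 and Lipn averaged under 5 CPM on both diets in islet macrophages and microglia.

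**Figure D4:**
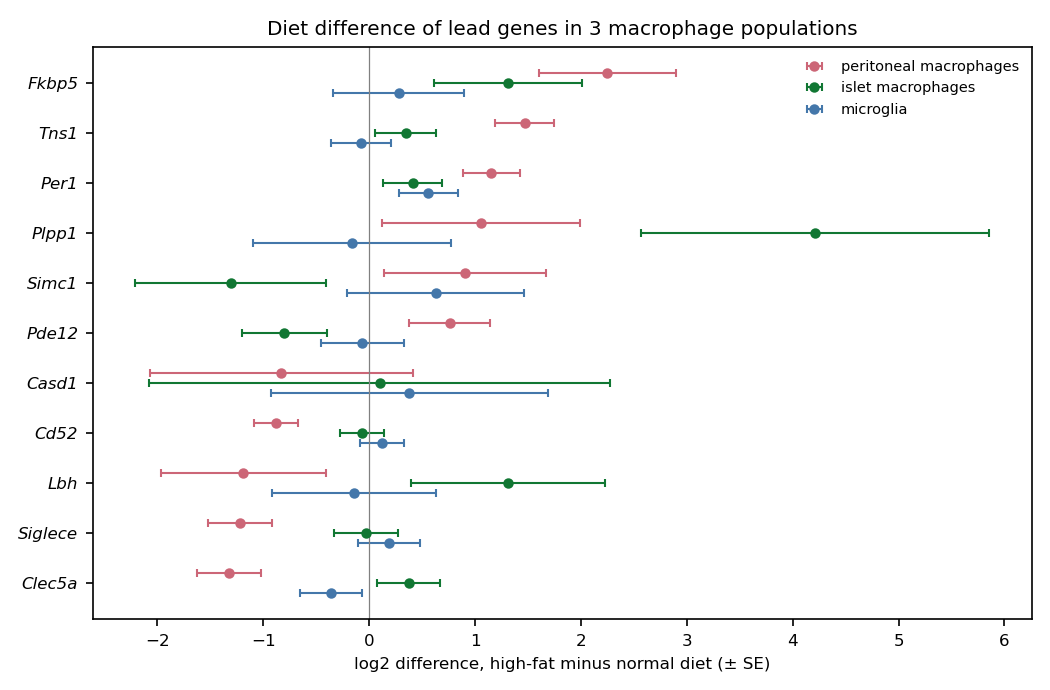
Log2 difference, high-fat minus normal diet, ± SE in the model of 37 libraries, for the 11 lead genes with a mean of at least 5 CPM in a diet group of each population. Siglece lies at -1.22 in peritoneal macrophages, -0.03 in islet macrophages and 0.19 in microglia.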

How the data were processed

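Polyadenylated RNA of FACS-purified peritoneal macrophages was sequenced after Smart-seq2. The deposited values are raw counts per gene, which the authors made with Trimmomatic 0.36, STAR 2.5.1a and featureCounts on mm10, per the submitters' processing notes. The annotation and the strand setting were not given in the sources used here. Of 50686 identifiers, 50376 had a symbol.

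Counts of the 14 peritoneal libraries of the diet experiment (5 normal diet, 4 high-fat diet, 5 STZ) were fitted with edgeR 4.0.16 (R 4.3.3) as deposited: TMM scaling, the default filter on low counts, diet and cohort as terms, the robust quasi-likelihood test and Benjamini-Hochberg adjustment over all tested genes, with calls below 0.05. The STZ libraries raised the residual degrees of freedom from 3 to 7 and also entered the estimates of the cohort terms. Standard errors are the log2 difference divided by the square root of F. Effects were compared between populations in 1 model of 37 libraries with cohort within population. Alternatives used DESeq2 1.42.0, limma 3.58.1 (voom with quality weights), RLE scaling, no filter, other blocks and leaving out each library. The procedure was tested on simulated data. These had the same dispersion in every gene, no cohort effect and no library standing apart, so that test does not cover these features of the data.

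The cohort pairs the libraries per the labels. Residuals of the 4 pairs of normal and high-fat diet correlated at 0.365, 0.280, -0.0095 and 0.161, and those of different cohorts at -0.0505 on average. No 2 of the 14 libraries held identical values.

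Genes named are those called with at least 5 CPM in a group, the 10 of smallest p in each direction where fewer than 10 were called, up to 4 called members of each of 45 lists or else the 2 of smallest p, the 5 called genes of smallest p in each population comparison, and cell type markers. Predicted genes and pseudogenes were left out. The members and lists were chosen with earlier results of these data known. Promoter windows are from RefSeq (GRCm38) and gene positions from GENCODE M21. Counting intervals cover counting error only.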

Additional observations from a re-analysis of the deposited data

Results flagged for a closer look

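Among 206 groups of 4 or 5 values, 33 held a value far from the others of its group by Dixon's test, where chance gives about 1 in 20, or 10.3. The cohort 3 normal diet library gave 10 of them. It was the highest for Cyp26a1 (34.5 CPM), Lipn (28.3 CPM), Plpp1 (24.5 CPM), the leukotriene C4 synthase gene Ltc4s (327 CPM), the heme oxygenase gene Hmox1 (264 CPM), the lysosomal protease gene Lgmn (1369 CPM), Plin1 (2.59 CPM), the complement gene C1qa (5058 CPM) and mt-Nd2 (872 CPM). It was the lowest for the hexokinase gene Hk1 (27.0 CPM).

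The cohort 2 normal diet library was the highest for the B cell receptor genes Cd79a (95.8 CPM) and Cd79b (80.0003 CPM), Cd2 (13 CPM), H2-Oa (2.95 CPM), the hemoglobin genes Hba-a1 (7.82 CPM) and Hba-a2 (6.52 CPM), the endothelial gene Pecam1 (8.78 CPM), the interferon-induced gene Igtp (196 CPM) and Pdk4 (27.8 CPM). The cohort 2 high-fat diet library was likewise the highest of its group for Cd79a (31.8 CPM), Hba-a1 (9.19 CPM) and Hba-a2 (7.83 CPM), and also for Clec5a (31.5 CPM), and the lowest for Mylip (43.7 CPM).

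The cohort 4 normal diet library was the deepest (19.0 M counts) and the highest for Per1 (77.3 CPM) and Rara (107 CPM), and that of cohort 5 was the highest for Egr1 (54.7 CPM). On the high-fat diet, the cohort 5 library was the highest for Cyp26a1 (2.08 CPM), the cohort 4 library for Rpl22 (90.1 CPM) and the cohort 1 library for Ptger4 (86.7 CPM), and the cohort 1 library was the lowest for Gata6 (18.4 CPM) and Lgmn (794 CPM).

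The diet effect differed between peritoneal and islet macrophages by a fitted log2 difference of -9.0 for Lpar5, -10.03 for Mapk1ip1, -7.30 for Slc37a3, -9.10 for Trim2 and -1.55 for Nr3c1, and between peritoneal macrophages and microglia by -9.71 for Xdh. Apart from Nr3c1, these genes had libraries at 0 counts in the other population, so the fitted size depends on the prior count and is no bound.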

How the results depend on the processing

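The count of genes called between the diets in peritoneal macrophages was 0 with all libraries. It was 3 with the replicate block and only the 9 libraries of both diets, 22 with no filter on low counts, 24 with DESeq2 and 8 with voom and quality weights. Leaving out each library in turn gave 0 to 2. Alternatives chosen after seeing the data gave, without the cohort 3 normal diet library, 56 calls with DESeq2, 2 with voom and 1 with no replicate block, and 2 without both libraries of cohort 3. With no replicate block, the count stayed at 0 with 14 and with 9 libraries. For the difference in diet effect from islet macrophages, 70 calls became 44 with no replicate block, 1110 with DESeq2 and 34 to 68 leaving out each library. For that from microglia, 1 call became 236 with DESeq2 and 0 to 2 leaving out each library. The cause was not tested. Of 1971 log2 differences of 99 named genes under alternatives, 1872 kept direction and call, 70 gained a call and 29 changed sign. Hdc was at 0.0151 with 9 libraries and the replicate block, 0.00944 with voom, and, without the cohort 3 normal diet library, 0.0239 with voom and 0.00372 with no replicate block. For mt-Nd2 these values were 0.0209, 0.00932, 0.0403 and 0.0382, with 0.0132 by DESeq2 without that library, 0.0114 without cohort 3 and -0.326 to 0.0120 leaving out each library. Prg4 was at 0.0120 with no replicate block, 0.00894 with no replicate block and 9 libraries, and -0.207 to 0.0713 leaving out each library. Ccr3 was at 0.130 and 0.123 in the same pair of fits, 0.0382 with voom, 0.0808 with voom without the cohort 3 normal diet library and -0.229 to 0.377 leaving out each library. Pecam1 was at 0.0130 with DESeq2 and -0.800 to 0.551 leaving out each library, Il7r at -0.301 to 2.22 and Vwf at -0.253 to 0.452. Of 760 medians of 38 lists, 72 moved by more than the SD over cohorts. Genes with few counts, such as Cyp26a1 on the high-fat diet, are limited by depth.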

Other observations

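Heat shock chaperones were higher in 13 of 18 tested genes with a median log2 difference of 0.13, and lysosomal genes in 19 of 31 with a median of 0.05. Of 24 NRF2 antioxidant and iron genes 10 were higher (median -0.08), of 24 genes of the unfolded protein response 13 (0.01), of 25 autophagy genes 9 (-0.04), of 21 glycolysis genes 12 (0.04) and of 21 immediate early genes 10 (-0.02). None of these 7 lists held a gene below that threshold. Of 13 complement genes 3 were higher (-0.06), of 17 efferocytosis and scavenger receptor genes 9 (0.01, with 2 higher and 1 lower at an unadjusted p below 0.05), of 18 prostaglandin and leukotriene genes 9 (0.02), of 21 macrophage lineage regulators 11 (0.01), of 14 genes of fatty acid synthesis 8 (0.02) and of 7 tested mitochondrially encoded genes 3 (-0.02). Of 16 genes of small peritoneal macrophages and monocyte-derived cells 10 were higher (0.15), with 1 higher and 3 lower at an unadjusted p below 0.05, and of 9 dendritic cell genes 5 (0.04).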
